A study of Arabidopsis thaliana with 4 samples.

Results

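The probes of the TC series on plates 00 to 12 of a tiling array are described here for trimethylated lysine 27 of histone H3 (H3K27me3) in Arabidopsis thaliana seedlings. A probe belongs to them if its name is TC, a plate number of at most 12, a row letter from A to H and a well. This gave 1248 of the 21740 probes with a value, on 13 full plates of 96 wells. The plate limit was set after the values had been seen, because the TC plates beyond it held almost no high probes (1 of 1152 by the rule given below). Counts by plate, and all comparisons of these 1248 probes with others, are therefore descriptions with no test.

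The array compared chromatin immunoprecipitate with input DNA from untreated Col-0 seedlings, labelled as 10 days old. Their growth is given as 10 to 11 days, in liquid 0.5X MS at 22 °C with a photoperiod of 16 hours. A commercial H3K27me3 antibody was used, and the DNA was amplified and labelled directly. All 4 arrays form 1 group. They cover 2 immunoprecipitations, called replicates I and II, with a dye exchange of 2 arrays for each, against the input of the same preparation. The labels name no separate cultures, so the spread between replicates may be technical. Whole seedlings were used, so a probe's value is a mix over all their cell types.

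H3K27me3 is written by Polycomb repressive complex 2, whose catalytic subunits in Arabidopsis include CURLY LEAF and SWINGER. In plants it lies mainly over the bodies of silent genes, where the chromodomain protein LHP1 binds it. Developmental regulators such as AGAMOUS, which specifies stamens and carpels, and FLC, a repressor of flowering, are textbook targets. The mark often covers a whole gene and can extend over several neighbours, so a tiling array can show it as sets of adjacent high probes. Which genes the TC probes cover was not examined here, because the files name probes by plate and well without pairing them with genes, positions or sequences.

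Each dye exchange carries 1 deposited score, the same on both of its arrays, so n = 2 throughout and no spread between arrays can be seen. The score behaves as a log ratio of unstated base, and its direction is likely immunoprecipitate over input, since the long tail lies on the high side. Values below are in units of the deposited score minus the median of all 21740 probes in that replicate. The term upper probe stands for a score 1 unit or more over that median in I and also in II.

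Of the 1248 TC probes, 185 were upper (14.8%), against 1752 of 9599 TB probes (18.3%) and 16.2% of the whole array. The upper TC probes averaged 2.39 ± 0.59 units in I and 1.75 ± 0.55 units in II (SD over probes). The upper TB probes averaged 2.41 ± 0.61 and 1.78 ± 0.56 units. So the TC plates held a smaller share of upper probes than TB, while the upper probes themselves stood at nearly the same height. The upper probes of the whole array averaged 2.41 and 1.78 units. All these means are over probes picked by the same limit, so part of their likeness is built in. The share among TC probes minus that among TB probes was -3.43 percentage points with both replicates, -5.17 in replicate I alone and -2.85 in replicate II alone. Both replicates put the TC share lower, but the size of the gap depended on the replicate and, as the plates show next, on a few plates.

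The middle of the distribution moved with the share. The TC median was -0.055 units in I and 0.013 in II, against 0.082 and 0.074 units for TB. At the 75th percentile the TC probes stood at 0.79 and 0.53 units, and the TB probes at 1.10 and 0.72 units. At the 95th percentile the values were 2.71 and 1.97 units for TC and 2.76 and 2.10 units for TB. Of these percentiles the gap was widest at the 75th, on the shoulder of the distribution. Outside the upper group the medians were -0.15 and -0.066 units for TC and -0.075 and -0.038 units for TB.

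The replicates ranked the TC probes alike. Pearson's r between them was 0.920 over the 1248 TC probes and 0.933 over the TB probes, with Spearman's rho of 0.798 and 0.838. Neighbouring probes share signal and all probes share the 2 hybridisation pairs, so no p-value is given. The least-squares slope of II against I was 0.66 for TC and 0.70 for TB. Replicate I gave the higher value for 98.9% of the upper TC probes, and the mean offset among them was 0.64 units. This was not particular to TC: it was 97.8% in TB and 97.8% over the array, with offsets of 0.63 and 0.62 units. The 2 upper TC probes in which replicate II was higher sat on plate 07 (row E, well 9) and plate 12 (row D, well 10).

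**Figure D1:**
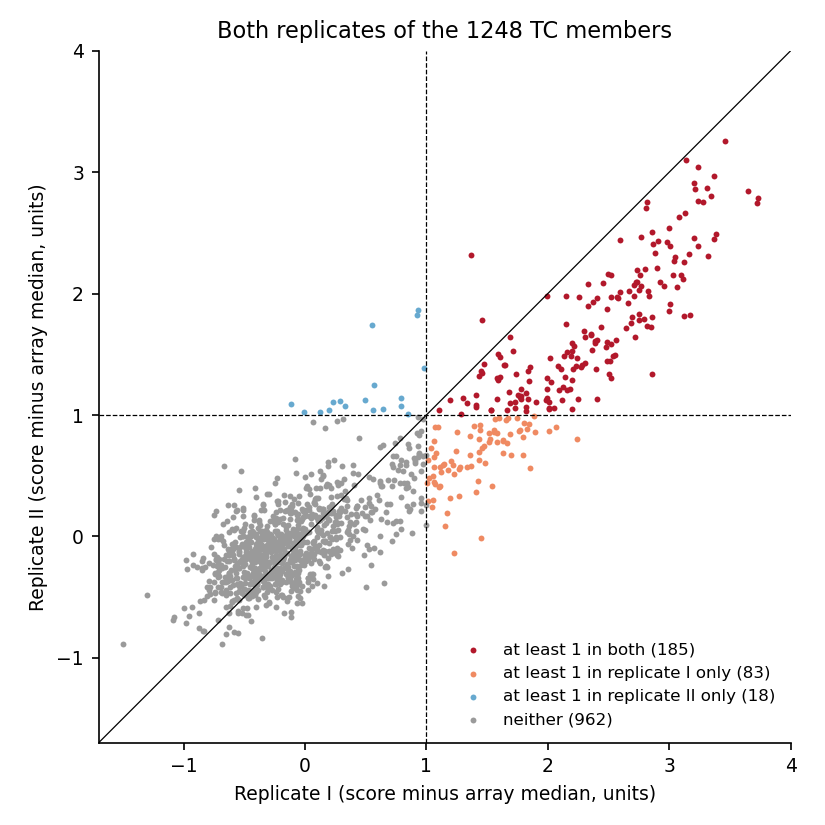
Score of each of the 1248 TC probes in replicate I (x axis) and replicate II (y axis), in units over the array median. Dashed lines mark 1 unit and the solid line marks equal values. The 185 upper probes lie almost wholly below the line of equal values, 83 probes reached 1 unit in replicate I only and 18 in replicate II only.

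Replicate I alone put 268 TC probes (21.5%) at 1 unit or more, where the whole array had 23.8%. Replicate II alone put 203 there (16.3%), where the whole array had 17.1%. The 83 probes that reached the limit in replicate I only had a median of 1.42 units there and 0.69 units in replicate II. In 64 of them replicate II was still at 0.5 units or more, so most were raised in both replicates, and 40 of them lay in a well next to an upper probe. The 18 probes that reached it in replicate II only had a median of 0.56 units in replicate I, and 2 of them lay beside an upper probe.

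Upper probes were unevenly spread over the 13 plates. Plate 04 held 39 of 96 (40.6%), plate 11 held 32 (33.3%) and plate 03 held 29 (30.2%). These 3 plates carried 100 of the 185 upper probes (54.1%). The other 10 plates carried 85, or 8.85% of their probes, with 3 to 14 upper probes each. Plate 01 had 14, plate 08 had 13, plate 05 had 12 and plate 10 had 11. Plate 00 had 8, plates 06 and 12 had 7 each, plate 07 had 6, plate 09 had 4 and plate 02 had 3. No plate of the 13 was without an upper probe, and 3 of the 100 TB plates were. The plate limit was set to leave out TC plates with almost none, so nothing is read from this. The median plate held 11.5% in TC and 16.7% in TB, and 5 TB plates were at least as full as plate 04, the highest at 63.5%.

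**Figure D2:**
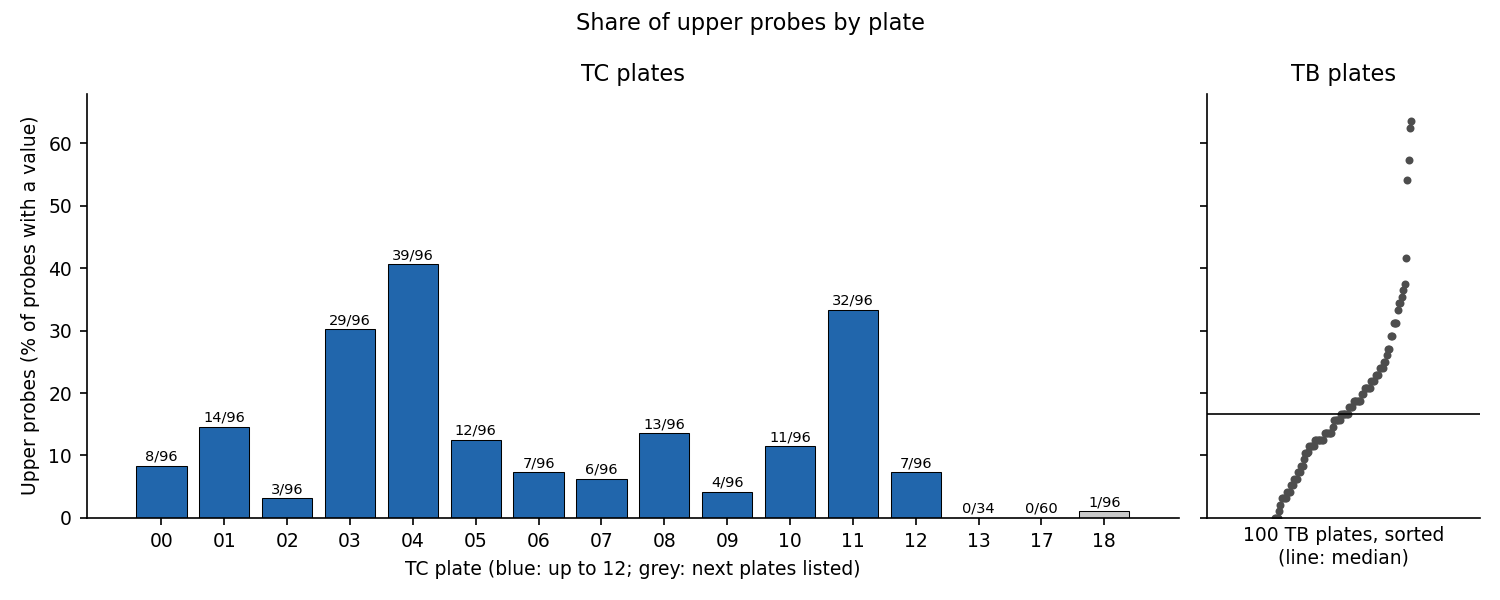
Upper probes as a percentage of the probes with a value on each TC plate (bars, with counts above) and on the 100 TB plates (points sorted by value, line at their median of 16.7%). Plates 03, 04 and 11 reached 30.2 to 40.6%, the other 10 member plates 3.13 to 14.6%, and the plates after 12 at most 1.04%.

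The same 3 plates stood out in their medians. Plate 11 had a median of 1.002 units in I and 0.54 in II, plate 04 had 0.75 and 0.55 units, and plate 03 had 0.67 and 0.40 units. Of the other plates, plate 01 alone had a median over 0 in both replicates, at 0.19 and 0.055 units. Plate 10 had the lowest median in replicate I, at -0.35 units, against -0.094 units in replicate II. Medians over 0 were found on 4 of 13 TC plates in I and on 5 in II, and on 63 and 68 of the 100 TB plates. With plate 04 left out, the TC share was 12.7% and the gap to TB was -5.58 points, so that plate alone moved the gap by more than 1.5 times.

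Plate 02 showed how far the count of a single plate could rest on 1 replicate. In replicate I, 21 of its probes reached 1 unit, in replicate II 6 did, and 3 did in both. The 18 probes that passed in replicate I only ranged from 1.02 to 1.80 units there (median 1.497) and from 0.41 to 0.97 units in replicate II (median 0.73). All 18 were over the median in both replicates.

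In name order, read along each row and plate by plate, the upper probes lay together. After an upper TC probe the next well was upper too for 70.8% of the 185, and after any other TC probe it was upper for 5.08%. For TB these shares were 74.7% and 5.66%. Unbroken runs numbered 54, of 3.43 probes on average (median 3), against 444 TB runs of 3.95 probes on average (median 3). In TC, 15 runs were single probes, 25 were of 2 to 4, 13 were of 5 to 9, and the longest was of 13. With wells counted down the columns, the share followed by another was 21.1% and the longest run had 5 probes, so adjacency followed the rows. Whether the order of names is that of the genome is not given in the sources used here.

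**Figure D3:**
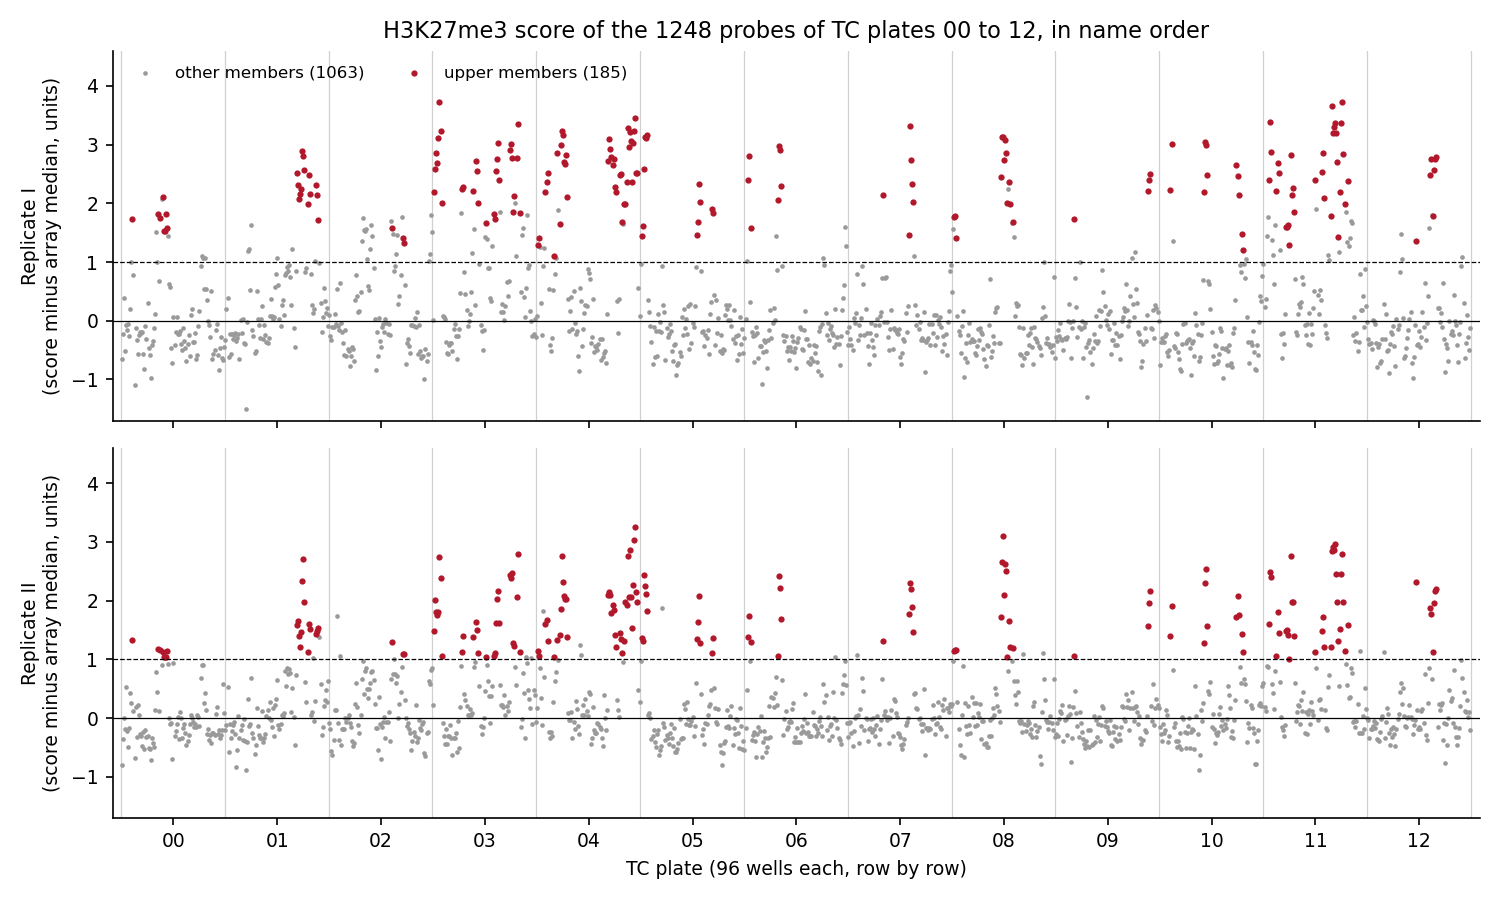
Score of the 1248 TC probes in name order in replicate I (top) and replicate II (bottom), in units over the array median (solid line at 0, dashed line at 1). Upper probes (red) stand in narrow stacks, densest on plates 03, 04 and 11, and by definition pass the dashed line in both panels.

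With both replicates required, few TC probes lay in long runs. Runs of 5 to 9 held 47.0% of the upper TC probes and 30.9% of those in TB. Runs of 10 or more held 7.03% and 29.1%. With 444 runs in TB and 54 in TC, the longest runs of the 2 series are not directly comparable. A single TC run (1.85% of runs) reached 10 probes, while 32 TB runs (7.21%) did, the longest with 46. This count depended on the replicate. In replicate I alone 5 TC runs reached 10 probes, the longest with 23, and held 27.6% of the 268 TC probes over the limit, against 60 TB runs with 39.0% and a longest of 54. In replicate II alone it was again 1 TC run, of 13 probes and 6.40% of the 203 over the limit, against 32 TB runs with 28.0%. The scarcity of long runs thus rests on few events and was not tested. At a limit of 0.5 units in both replicates, which 292 TC probes (23.4%) and 25.6% of the array passed, there were 74 TC runs, 6 of them with 10 probes or more and the longest with 19, on plate 11, against 601 TB runs with a longest of 47. Of these 74 runs, 31 held no upper probe and covered 52 probes.

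Longer runs were higher, and this held when the height was read in the replicate that had not set the run. Runs set in replicate I alone averaged 0.85 ± 0.52 units in replicate II for 17 single probes and 1.10 ± 0.45 for 31 runs of 2 to 4. They averaged 1.49 ± 0.38 units for 12 runs of 5 to 9 and 1.74 ± 0.16 for 5 runs of 10 or more (SD over runs). The matching TB means were 0.77, 1.07, 1.46 and 1.65 units, each within 1 SD of the TC mean. Set in replicate II and read in replicate I, the TC means were 1.16, 2.13, 2.50 and 2.77 units, the last from 1 run. The TB means in that reading were 1.38, 2.16, 2.48 and 2.65 units. Correlated neighbours make a longer stretch over a fixed limit higher by construction, so this is a description of shape.

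The longest run lay on plate 04 and covered 13 probes from row G well 10 to row H well 10. It averaged 2.77 ± 0.50 units in I and 2.24 ± 0.58 in II (SD over probes), with no probe below 1.99 units in replicate I or 1.31 in replicate II. It held TC04H08, the highest of all 1248 probes by mean, at 3.46 units in I and 3.26 in II (SD 0.14, n = 2). That probe ranked 171st of the 21740 probes of the array in I and 30th in II. Only 3 probes parted this run from the next, which held 6 probes on plate 05 from row A well 2 to well 7, at 2.51 ± 0.79 and 1.89 ± 0.47 units. The 3 probes between them stood at 0.56 and 0.48 units, 0.085 and 0.27 units, and 0.97 and 0.97 units in I and II. All were over the median, and the last was just short of the limit in both replicates.

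Plate 04 as a whole had a high start, a low middle and a high end. Rows A to C held 15 upper probes of 36, rows D and E none of 24, and rows F to H 24 of 36. Row H was the fullest, with 10 of 12 upper and medians of 2.999 units in I and 2.11 in II. Row E was the lowest, with medians of -0.39 and -0.17 units. In rows D and E together no probe exceeded 0.88 units in replicate I, whereas replicate II reached 1.25 units at row D well 5, where replicate I had 0.57. The low middle was part of a stretch of 37 probes without an upper one, from row C well 6 to row F well 6.

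Besides the 13-probe run, plate 04 held a pair of 8-probe runs. The first ran from row B well 10 to row C well 5, at 2.67 ± 0.54 units in I and 1.98 ± 0.45 in II. The second ran from row F well 7 to row G well 2, at 2.68 ± 0.31 and 1.81 ± 0.34 units. Their heights were alike within the spread of their probes. The second had a sharp edge, since row F well 6, just before it, stood at 0.11 and 0.13 units, and well 7 at 2.73 and 2.10 units. The remaining 5 runs of the plate had 1 to 3 probes, and the replicates correlated over the plate at r = 0.944.

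**Figure D4:**
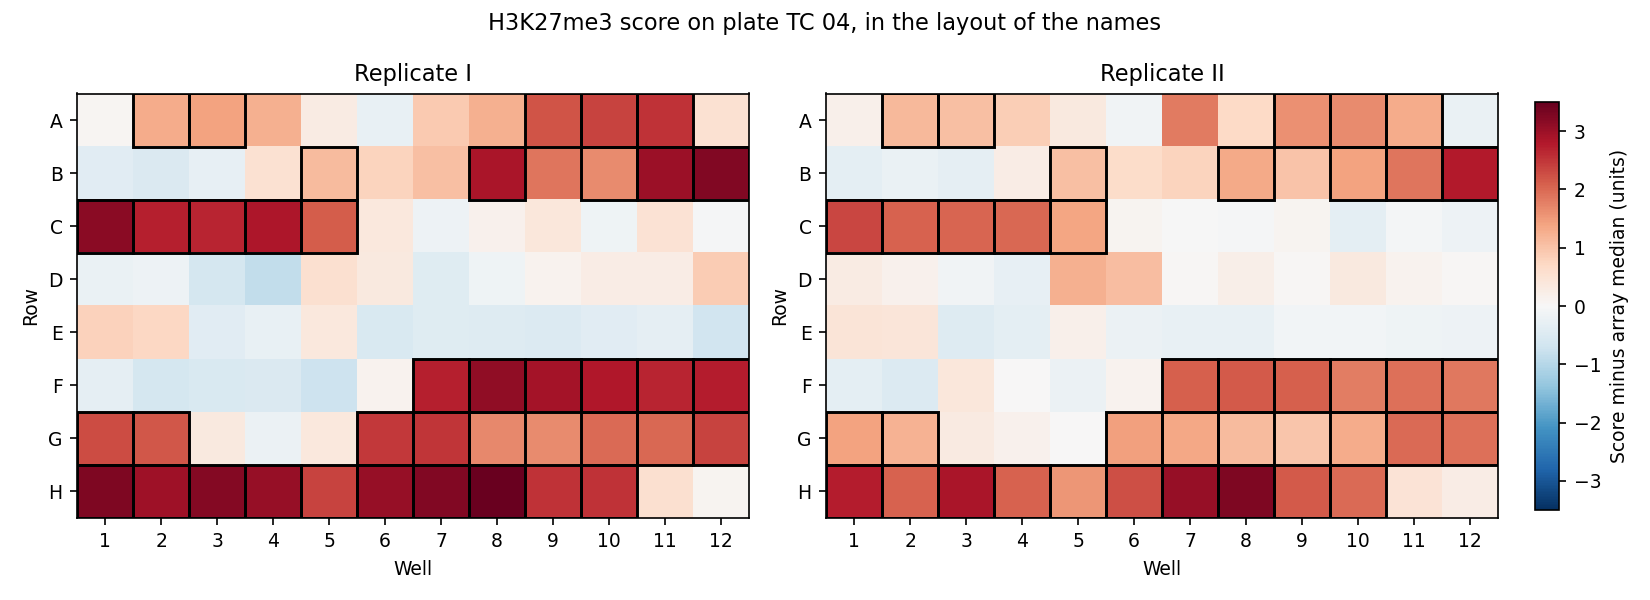
Map of plate 04 with rows A to H down and wells 1 to 12 across, coloured by score over the array median in replicate I (left) and replicate II (right). Black frames mark the 39 upper probes, of which 24 lie in rows F to H and none in rows D and E.

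Plate 11 was the second fullest, with its upper probes in rows A to C and rows E to G. Its outline differed from that of plate 04, where row E held none and row H was the fullest. Rows A to C held 3, 6 and 5 upper probes, rows E to G held 4, 9 and 5, and rows D and H held none. Its row F had medians of 2.45 units in I and 1.75 in II. An 8-probe run from row F well 3 to well 10 averaged 2.83 ± 0.81 and 2.32 ± 0.73 units. A single probe parted it from a 5-probe run, from row F well 12 to row G well 4, at 2.82 ± 0.74 and 1.98 ± 0.67 units. That run held TC11G02, the second highest by mean of the 1248 probes, at 3.73 units in I and 2.79 in II (SD 0.67, n = 2). A further 8-probe run, from row B well 10 to row C well 5, was lower in replicate I, at 1.90 ± 0.49 units, with 1.69 ± 0.54 in replicate II.

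On plate 03 the 29 upper probes formed 8 runs. The longest had 8 probes, from row A well 2 to well 9, at 2.80 ± 0.56 units in I and 1.88 ± 0.52 in II. A 6-probe run from row E well 9 to row F well 2 averaged 2.38 ± 0.52 and 1.60 ± 0.45 units. A 5-probe run from row F well 12 to row G well 4 averaged 2.53 ± 0.51 and 1.96 ± 0.64 units. The plate's runs were thus no longer than those on plate 01, but there were more of them.

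Plates 00, 01, 07 and 08 also held a run of 5 probes or more each. Plate 01 had an 8-probe run from row F well 7 to row G well 2, at 2.45 ± 0.30 units in I and 1.79 ± 0.51 in II. Plate 08 had a 7-probe run from row D well 10 to row E well 4, at 2.77 ± 0.42 and 2.25 ± 0.69 units. Plate 07 had a 5-probe run from row E well 9 to row F well 1, at 2.37 ± 0.71 and 1.93 ± 0.33 units. The 5-probe run of plate 00, from row D well 3 to well 7, was the lowest of this length or more, at 1.71 ± 0.25 and 1.08 ± 0.050 units. It passed the limit in replicate II by little, so a limit of 1.5 units, which 104 TC probes (8.33%) and 9.98% of the array passed in both replicates, leaves it out.

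Between the runs lay stretches without an upper probe. The median gap was 8 probes, 15 of the 53 gaps were of 1 or 2 probes, and 6 were of 50 or more. The longest had 119 probes, from plate 00 row D well 8 to plate 01 row F well 6, with medians of -0.13 units in I and -0.10 in II. It was not low throughout, since its highest probe in replicate I reached 1.63 units, while replicate II stayed at 0.94 or less. The next, of 93 probes, ran from plate 06 into plate 07.

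Run edges were steep on the scale of wells. To keep the noise that sets an edge apart from its height, runs of 3 or more probes were set in 1 replicate and read in the other. Set in I and read in II, the outermost probe of a TC run averaged 1.14 ± 0.50 units and the next probe inward 1.52 ± 0.57 (SD over 78 edges). The first probe outside averaged 0.29 ± 0.39 units and the second 0.032 ± 0.31. An edge was followed outward only until a probe again reached 1 unit in the replicate that set it. This left 66 edges for the second probe outside. In this reading the mean over the edges still followed was thus close to the array median within 2 wells. Probes outside an edge are under 1 unit in the replicate that set it by definition, which holds part of this step. Set in replicate II and read in replicate I, the outermost probe averaged 2.15 ± 0.44 units and the first outside 0.87 ± 0.63, over 60 edges. The second averaged 0.33 ± 0.65 over 51 edges and the third 0.17 ± 0.53 over 42. TB runs had 1.05, 0.28 and 0.063 units for the first of these readings (outermost, first and second outside), and 2.13, 1.02 and 0.46 units for the other. All lay within 1 SD of the TC means.

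**Figure D5:**
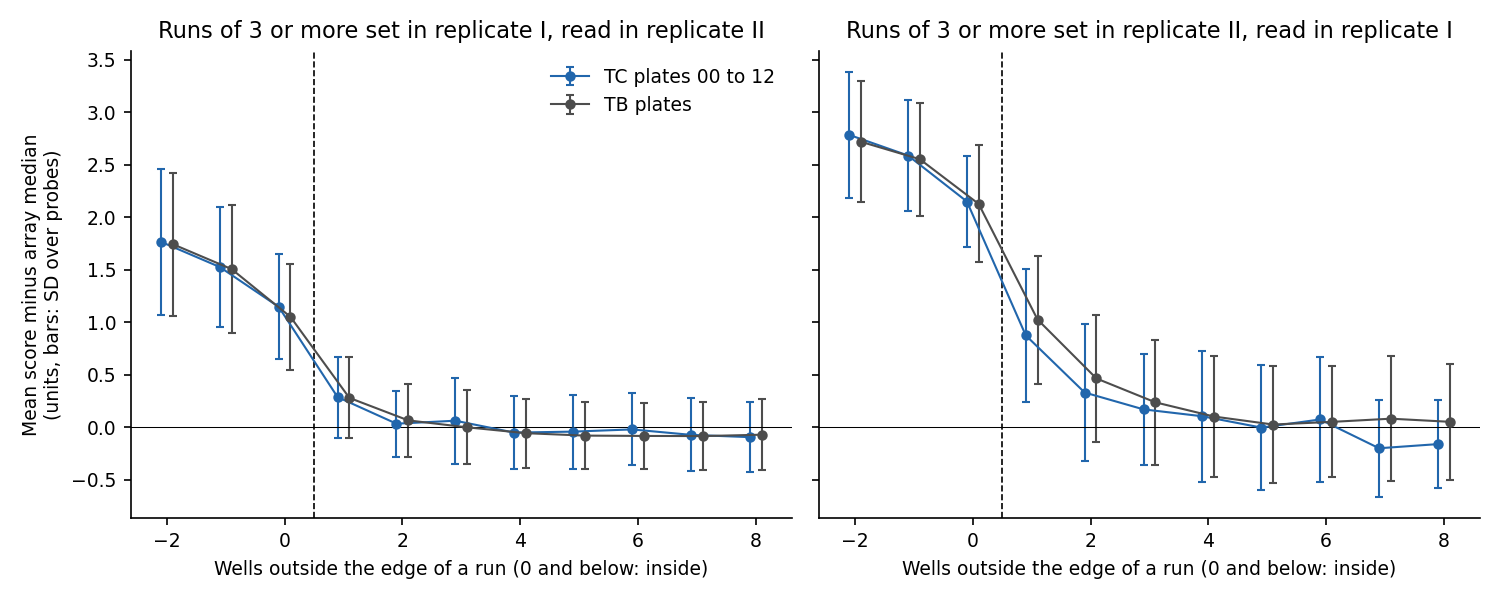
Mean score over the array median by distance in wells from the edge of a run, for TC plates 00 to 12 (blue) and TB plates (grey), with SD over probes as bars. Inside positions (0 and below) are high, the first well outside averages 0.29 (left) and 0.87 units (right) for TC, and the second averages 0.032 and 0.33 units. An edge drops out once a probe outside it reaches 1 unit in the replicate that set it.

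The likeness of scores declined over about 12 wells. Between a TC probe in 1 replicate and its next neighbour in the other, r was 0.764 over 1247 pairs, and 0.798 for TB. It was 0.456 at 3 wells, 0.197 at 8 wells, 0.097 at 12 wells and 0.006 at 96 wells, against 0.512, 0.210, 0.150 and -0.012 for TB. The pairs overlap and share both hybridisations, so these are descriptions. The distance of 96 wells pairs the same well of successive plates.

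The approach to the plate limit was not a steady decline. Plate 11, the last but 1, was among the 3 fullest, and plate 12 held 7 upper probes, as plate 06 did. Those of plate 12 were a single probe in row D, a pair at row E wells 11 and 12 and a run of 4 at row F wells 2 to 5. The run averaged 2.48 ± 0.48 units in I and 1.86 ± 0.50 in II. After it the last 31 probes of plate 12 held none, with medians of -0.12 and 0.096 units and highest values of 1.08 and 0.98 units. The TC probes outside the upper group had medians of -0.15 and -0.066 units, so these last 31 were not lower than the rest.

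Just outside the limit, plate 13 lists 34 probes, in rows A to C, of which none was upper. Its medians were -0.30 units in I and -0.099 in II, and its highest values 0.76 and 1.09 units. Plate 17 is the next analysed here. It lists 60 probes, in rows D to H, with medians of 0.22 and -0.11 units and highest values of 0.35 and 0.21 units. From the last upper probe of plate 12, 216 probes with a value follow until the next upper one, on plate 18 at row H well 8, with 1.16 and 1.08 units. Ending the range at plate 10, 11 or 13 instead of 12 gave shares of 13.8%, 15.5% and 14.4%.

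At the limit of 1 unit, 15 probes lay within 0.05 units of it in their lower replicate, 7 inside and 8 outside. The nearest inside stood at 1.29 units in I and 1.01 in II, within the 8-probe run of plate 11 at row C well 1. The nearest outside stood at 1.89 and 0.99 units on plate 04 at row B well 9. Its neighbours on both sides were upper, so that a small shift would join a single probe to an 8-probe run.

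For the 15 single upper probes no matching TB counts are given. None of them stood between neighbours that were both under the median in I and II. A neighbour at 0.5 units or more in both was found for 10 and not for the rest. The single probe on plate 12 at row D well 10 was 1 of those without, at 1.37 units in I and 2.32 in II, between neighbours at -0.069 and -0.031 units and at -0.42 and 0.13 units. The 15 averaged 1.87 units in I and 1.31 in II, below the longer runs.

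On the low side 0 of 1248 TC probes lay 1 unit or more under the median in both replicates, against 2 of 9599 TB probes and 10 of the 21740 probes of the array (0.046%), so a count of 0 is near the share of the array. The lowest by mean was TC01B08, at -1.50 units in I and -0.88 in II (SD 0.44, n = 2). TC09C06 followed at -1.30 and -0.48 units (SD 0.58, n = 2). Both were far lower in replicate I than their neighbours, which lay between -0.45 and -0.027 units there.

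In limma's moderated test over all 21740 probes, calls at 0.05 after Benjamini-Hochberg adjustment put 309 TC probes over the array median (24.8%) and 33 under it (2.64%). The whole array had 27.1% above and 4.81% below, and TB had 29.9% and 1.53%. All 185 upper TC probes were among the 309. As the plates were chosen on this same contrast, nothing further is read from these counts.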

How the data were processed

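The authors deposited 1 score per probe and array, per the file headers a column per sample. The sources used here do not state how they normalized it, its log base, its centring or its direction. The deposited medians were -0.94 (replicate I) and -1.20 (replicate II). Both arrays of a dye exchange hold equal scores (largest difference 0), so their mean was taken as 1 replicate, from which the median was subtracted over the 21740 plate and well probes with a value. No per-sample column was left unused. All samples form 1 group with n = 2, which limits the precision. Single intensities were not used here.

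The members, the rule of 1 unit, the runs and all lists were chosen with earlier results of these data known. Neighbours are consecutive wells of a series, in rows of 12 and plates of 96. Named are the 2 highest and 2 lowest members by mean, the probes nearest the rule, and all runs of 5 or more; other probes named by well were chosen after their values were seen. No gene was named. The two-sided test was limma (lmFit, eBayes; intercept alone) over all 21740 probes, tested on simulated data. Each probe keeps 1 residual degree of freedom.

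Alternatives were other centrings, quantile normalization, equal spread, other rules of size, 1 replicate, wells down the columns, other plate limits, no plate 04, a stricter threshold and a trended, robust prior. Centring by plate rows and turning the sign were added after the data were seen. Software was limma 3.58.1 under R 4.3.3, and scipy 1.17.1, pandas 2.3.3, numpy 2.4.6 and matplotlib 3.10.9 under Python 3.11.15.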

Additional observations from a re-analysis of the deposited data

How the results depend on the processing

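The 185 upper TC probes stayed within 1.5 times that number under mode centring (223), quantile normalization (210) and equal spread (195). They also did under centring on the TC median (185) and centring by row (187). With 1 replicate left out they were 203 to 268, but this setting could only add probes, since the rule asks for both replicates. They were 36 with no centring, 292 at 0.5 units and 104 at 1.5 units. The 54 runs were 18 with no centring, 33 at 1.5 units, 146 with wells counted down the columns, and 65 to 69 with 1 replicate left out. The longest run (13 probes) was 13 to 23 with 1 replicate left out, and could not become shorter in that setting. The share followed by another (70.8%) was 50% with no centring, 21.1% down the columns, and 66.0 to 75.7% with 1 replicate left out. The gap to TB (-3.43 points) stayed negative in every setting that counted high probes, for plates chosen with these values known. It was -1.32 with no centring and -5.17 to -2.85 with 1 replicate left out. Without plate 04 it was -5.58, but leaving out the fullest plate could only widen a negative gap. Without plate 04 the replicates correlated at 0.911, against 0.920 with it. With the sign turned, 0 TC probes and 0 runs remained, and the gap was -0.021 points. That setting counts low probes and says nothing about the share of upper ones.

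The 309 limma calls of TC probes above the median were 126 with no centring, and 229 to 368 in the other settings. Over all 21740 probes the 5897 calls above were 2518 with no centring, and 4297 to 7220 otherwise. The 33 TC calls below the median had no stable number: 893 with no centring, 1 with mode centring, 172 with quantile normalization, 146 with equal spread, 1 at adjusted p under 0.01 and 247 with the trended, robust prior. Nor had the 1046 below over the whole array. In the same order they were 14914, 37, 4049, 3666, 46 and 5147, so the instability was not particular to TC. Other centrings, rules of size and signs, and leaving out 1 replicate, change by construction which probes are counted. Counting wells down the columns kept the same upper probes, so its moves describe how those probes lay on the plates. Why this order and the remaining settings moved the results was not tested. No paired analysis was possible because all samples form 1 group. Fits by dye orientation were not run, as the arrays of an exchange hold equal scores. The plates up to 14 equal those up to 13 (14.4%), as no probe of plate 14 was analysed here. With 1 replicate left, limma cannot estimate a spread and was not run. Signal over background was not used here, and dim probes were not told from others.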

Other observations

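The difference between the replicates varied with the row of the plate, a pattern noticed in the data and not tested. Among TC probes outside the upper group, replicate I minus replicate II had a median of 0.025 units over 519 probes in rows A, C, E and G, and -0.12 units over 544 probes in rows B, D, F and H. Rows A, C, E and G had the higher median difference on 11 of the 13 plates. In TB probes the medians were 0.078 and -0.019 units, with the same order on 71 of 100 plates. Centring these row classes separately kept 184 of the 185 upper TC probes and added 3, so the calls hardly moved. Upper probes numbered 105 in the first set of rows and 80 in the second, against 833 and 919 in TB.

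The replicates also differed by plate. In the probes outside the upper group, the median of replicate I minus replicate II was 0.18 units on plate 11 and 0.16 on plate 03, and -0.24 units on plate 08 and -0.16 on plate 10. Plate 17, outside the plates described here, had 0.29 units. The cause of these plate and row differences was not tested.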
